A study of Homo sapiens with 7 samples.

Results

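The 2 derivatives compared here, Lat-M1 and Lat-M2, are latent metastatic cells of 769-P, an established human line of clear cell renal cell carcinoma. They are represented by 4 of the 7 RNA sequencing libraries of the study, 2 of Lat-M1 (labelled 1-1 and 1-2) and 2 of Lat-M2 (2-1 and 2-2), chosen by their titles. The other 3 libraries are of PA cells of the same line (the labels leave the abbreviation unexplained), and their values are given beside those of both pairs. All cells carry the same line name and were grown in the same serum-containing medium, and no genotype, treatment or time is given that sets the pairs apart. What the first number of the Lat-M titles stands for is not stated, so each pair may be 1 derivative, clone or isolate, and a difference between pairs may belong to that derivative alone. The labels do not say whether the libraries of a pair were separate cultures. The p-values therefore reflect only how these particular libraries vary, and that variation may be technical.

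A clear cell carcinoma of the kidney arises from the proximal tubule, an epithelium that reabsorbs water, glucose, amino acids and filtered protein across a brush border of microvilli. Cells of this kind can lose tubular features and take up mesenchymal or myofibroblast-like ones, with actin stress fibres, fibronectin, collagens and integrins, and the genes of that programme are controlled by SRF, SMAD, YAP and AP-1 factors. Renal tumour cells also vary in cytokine output, antigen presentation and in how far they burn or store fat. The families below follow those functions.

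Expression is in TPM, a transcript abundance that corrects for transcript length and has the same sum of 1000000 in every library. Read totals cannot be had from TPM, and sequencing depth is therefore unknown. Differences were tested on log2(TPM + 1) for the 16724 genes that averaged 1 TPM or more over all 7 libraries. Pearson's r across these genes, which are not independent replicates, was 0.9872 within Lat-M1, 0.9842 within Lat-M2 and 0.9427 to 0.9466 between the pairs. Together, 4 structural RNAs (RMRP, RN7SK, RN7SL1 and RN7SL2) took 21.9% and 18.6% of all TPM in Lat-M1 and 22.9% and 27.7% in Lat-M2. The share left for other genes thus differed between single libraries, within the pairs as well as between them. The part of these RNAs in the results was not tested beyond the scalings given below. Libraries were made with either of 2 kits, and the labels do not assign a kit to each library, so kit and pair cannot be told apart.

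Lat-M2 and Lat-M1 differed widely. With limma at an adjusted p under 0.05, 2668 genes were higher in Lat-M2 (16% of those tested) and 3354 were lower (20.1%), together 36%. After each library was scaled by its median ratio to the others, 3605 genes were higher (21.6%) and 3781 were lower (22.6%), together 44.2%, and 5939 genes passed in the same direction both ways. Most of these differences were small. The middle 50% of genes lay between -0.28 and 0.25 on the log2 scale, with a median of -0.011 (0.011 after scaling) and a median standard error of 0.104. The values of the pairs did not overlap in 11429 genes (68.3%).

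A 2-fold minimum left 575 genes that were higher in Lat-M2 (3.44%) and 548 that were lower (3.28%), or 582 (3.48%) and 513 (3.07%) after scaling. At least 4-fold differences were found in 130 higher and 129 lower genes, and at least 16-fold differences in 19 and 12. The counts without a minimum depended on scaling and on single libraries. Higher genes made up 44.3% of all calls, 48.8% after median-ratio scaling, 59.7% with TPM over protein-coding genes alone and 58.8% with the 4 structural RNAs left out. Without the first Lat-M1 library the number of higher genes was 1536, and without the second Lat-M1 library the number of lower genes was 1917. The 2-fold counts moved by less than 1.5 times under each of these 5 settings, and the text below leads with them.

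**Figure D1:**
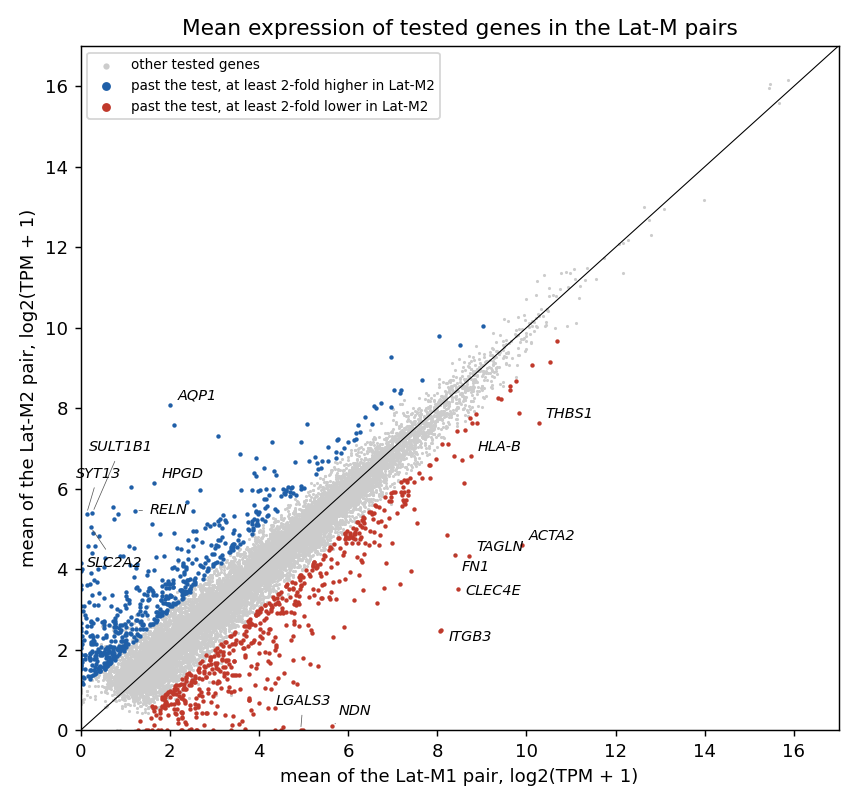
Log2 of the mean TPM plus 1 of each tested gene in the Lat-M1 pair (x axis) and the Lat-M2 pair (y axis). Blue and red points are the 575 and 548 genes past the test and at least 2-fold apart, and the named genes lie far from the diagonal, with AQP1 above it and ITGB3, NDN and ACTA2 below it.

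The 2-fold genes were mostly ones in which Lat-M1 stood away from PA. The mean of the PA libraries, which took no part in choosing these genes other than in the shared estimate of spread and the minimum mean, lay nearer to Lat-M2 than to Lat-M1 on the log2 scale for 988 of the 1123 genes. That held for 479 of the 575 higher genes and for 509 of the 548 lower genes. The same share over all tested genes was not counted. Across all tested genes PA was also closer to Lat-M2 (Pearson's r 0.9745 to 0.9779) than to Lat-M1 (0.9383 to 0.9445). The count may therefore not be particular to the 2-fold genes.

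The largest rise was in AQP1, the water channel of the proximal tubule. It was at 3.08 and 2.97 TPM in Lat-M1 and at 265 and 272 TPM in Lat-M2, with 53.8, 61.2 and 54.6 TPM in PA. Its log2 fold change was 6.06 ± 0.0761 (SE; limma adjusted p = 4.37e-08), and a second identifier of the same symbol gave 5.50. Lat-M1 thus lay below all PA libraries and Lat-M2 above them. SLC2A2, the glucose transporter GLUT2, was at 0.11 and 0.229 TPM in Lat-M1, at 31.8 and 32.2 TPM in Lat-M2 and at 68.7 to 71.4 TPM in PA (4.82 ± 0.0718, limma adjusted p = 7.72e-08). Here Lat-M2 stayed below PA and Lat-M1 was close to 0.

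USH1C encodes harmonin, a scaffold that links cadherins at the tips of brush border microvilli. It was at 1.21 and 1.17 TPM in Lat-M1 and at 68.5 and 61 TPM in Lat-M2 (4.90 ± 0.0878, limma adjusted p = 1.39e-07). SULT1B1, a cytosolic sulfotransferase, was at 0.218 and 0.186 against 43.2 and 39.4 TPM (5.14 ± 0.0851, limma adjusted p = 9.08e-08). HPGD, which inactivates prostaglandins, was at 2.09 and 2.18 against 72 and 67.1 TPM (4.49 ± 0.0658, limma adjusted p = 7.72e-08). Each of these genes was within 2-fold of Lat-M2 in every PA library and far lower in Lat-M1.

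SYT13, a member of the synaptotagmin family, was at 0.122 and 0.0722 TPM in Lat-M1 and at 43.2 and 38.1 TPM in Lat-M2 (5.24 ± 0.083, limma adjusted p = 7.72e-08). The other rises named by size were LGALS2, a galectin (log2 fold change 4.84), CHCHD10, a mitochondrial intermembrane protein (4.63), the organic anion transporter gene SLCO1B3 (4.53), LST3 (4.51), the succinate receptor SUCNR1 (4.43), CLRN3, a clarin (4.40), and GPR35, a G protein-coupled receptor (4.25). SLCO1B3 and LST3 overlap and share reads, so their separate values are uncertain. None of these genes exceeded 1 TPM in either Lat-M1 library.

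The largest fall was in ITGB3, the beta 3 integrin chain that pairs with the alpha V chain to bind fibronectin and vitronectin. It was at 265 and 274 TPM in Lat-M1 and at 4.53 and 4.74 TPM in Lat-M2, with 9.57 to 10.4 TPM in PA (-5.59 ± 0.0685, limma adjusted p = 4.37e-08). ACTA2, smooth muscle alpha actin, was at 915 and 983 against 23.9 and 22.5 TPM, with 13.3 to 13.5 TPM in PA (-5.29 ± 0.0625, limma adjusted p = 4.37e-08). Both Lat-M1 libraries were far above all 5 others for each gene.

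FN1, fibronectin, was at 317 and 350 TPM in Lat-M1, at 20.6 and 18.6 TPM in Lat-M2 and at 89.1, 90.3 and 95.5 TPM in PA (-4.02 ± 0.0786, limma adjusted p = 1.82e-07). The pairs lay on opposite sides of PA. CLEC4E, the C-type lectin Mincle, was at 337 and 373 against 11.3 and 9.32 TPM, with 26.7 to 27.7 TPM in PA (-4.98 ± 0.0947, limma adjusted p = 1.82e-07). It is otherwise known from macrophages. Of the leukocyte markers measured, PTPRC, which all leukocytes carry, was listed at 0 in all 4 Lat-M libraries. CD68, which macrophages and many other cells express, was lower in Lat-M1, at 14.1 and 15.5 TPM, than in Lat-M2, at 41.8 and 39.7 TPM. The only other leukocyte marker tested went the opposite way and was higher in Lat-M1 (log2 fold change -0.77).

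A further set of falls were genes near 0 TPM in all libraries but those of Lat-M1. NDN, an imprinted gene of the MAGE family, was at 48.5 and 49 TPM in Lat-M1 and at 0.104 and 0.0539 TPM in Lat-M2 (-5.53 ± 0.141, limma adjusted p = 5.92e-07). PHGDH, the first enzyme of serine synthesis from glucose, was at 31 and 30.7 against 0 and 0.0181 TPM (-4.98 ± 0.145, limma adjusted p = 1.17e-06). LGALS3, a galectin, was at 28.4 and 30.8 TPM in Lat-M1 and listed at 0 in both Lat-M2 libraries and in 2 of the 3 PA libraries. RBMS3, an RNA-binding protein, was at 21.2 and 21.6 TPM in Lat-M1, and GYPC, a membrane glycoprotein that anchors the spectrin skeleton, at 18.8 and 20 TPM. Both were listed at 0 in both Lat-M2 libraries and reached 0.0635 TPM at most in PA. The actin bundler LCP1 was at 19.3 and 19.4 TPM in Lat-M1 and at 0.472 and 0.468 TPM in Lat-M2.

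The remaining falls named by size were TAGLN (-4.40), described with the contractile genes, the circadian repressor BHLHE41 (-3.72), the noncoding transcript RP11-453F18__B.1 (-4.47) and RP11-283G6.4 (-3.71), annotated as antisense. The kits named in the labels do not mark strand, so reads of an antisense gene and of its partner cannot be told apart.

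**Figure D2:**
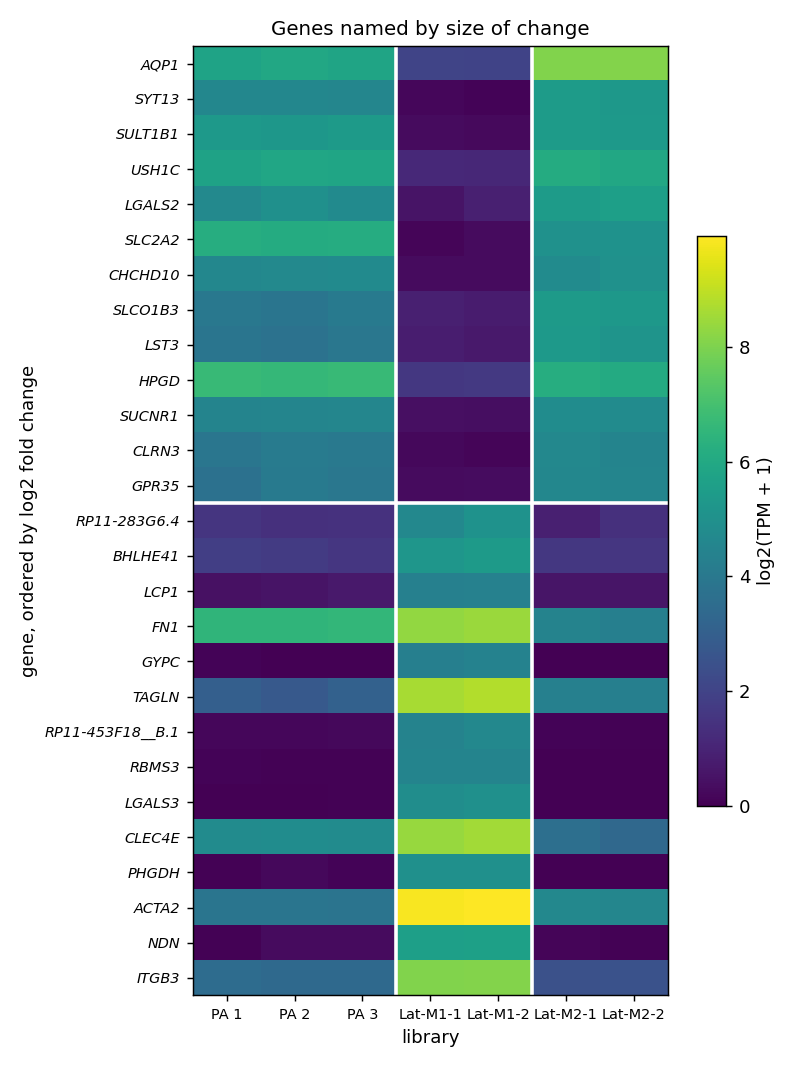
Log2(TPM + 1) of the genes named by size of change (rows, from the largest rise to the largest fall in Lat-M2 against Lat-M1) in the 7 libraries (columns), with 1 row for a symbol under 2 identifiers. In the upper block the Lat-M1 columns are dark, and in the lower block they are bright, while both Lat-M2 columns are closer to PA in most rows.

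Gene families were described with 73 lists, 67 of which had at least 5 tested members. In 50 of these 67 lists the share of members at least 2-fold apart was above the 6.71% of all tested genes, and in 49 the median log2 fold change was below 0. The second count was 45 after median-ratio scaling and 34 with TPM over protein-coding genes alone. Counts without a 2-fold minimum were small in many lists and moved with scaling and with single libraries. Such moves are given beside many of the counts below. The test was passed in either direction by 36% of all tested genes and by 43.7% of protein-coding ones. Several lists lay near or below these shares. Among them were ATF4 and endoplasmic reticulum stress genes (42.9%), VHL and hypoxia factors (40%), nuclear respiratory chain genes (37.3%), cytosolic ribosomal proteins (32.9%) and histones (32.6%). Their counts do not set them apart from other genes. Lists were chosen with earlier results of these data known and share some members, so these counts describe the lists and do not test them. Among lists with at least 5 tested members, the largest shares of genes at least 2-fold lower were in collagens, contractile genes, adhesive glycoproteins, collagen-modifying enzymes and desmosome genes. The largest shares of genes at least 2-fold higher were in brush border genes, S100 proteins and galectins, hyaluronan genes and ion, organic anion and water transporters. Without the 2-fold minimum the order of the lists was different.

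**Figure D3:**
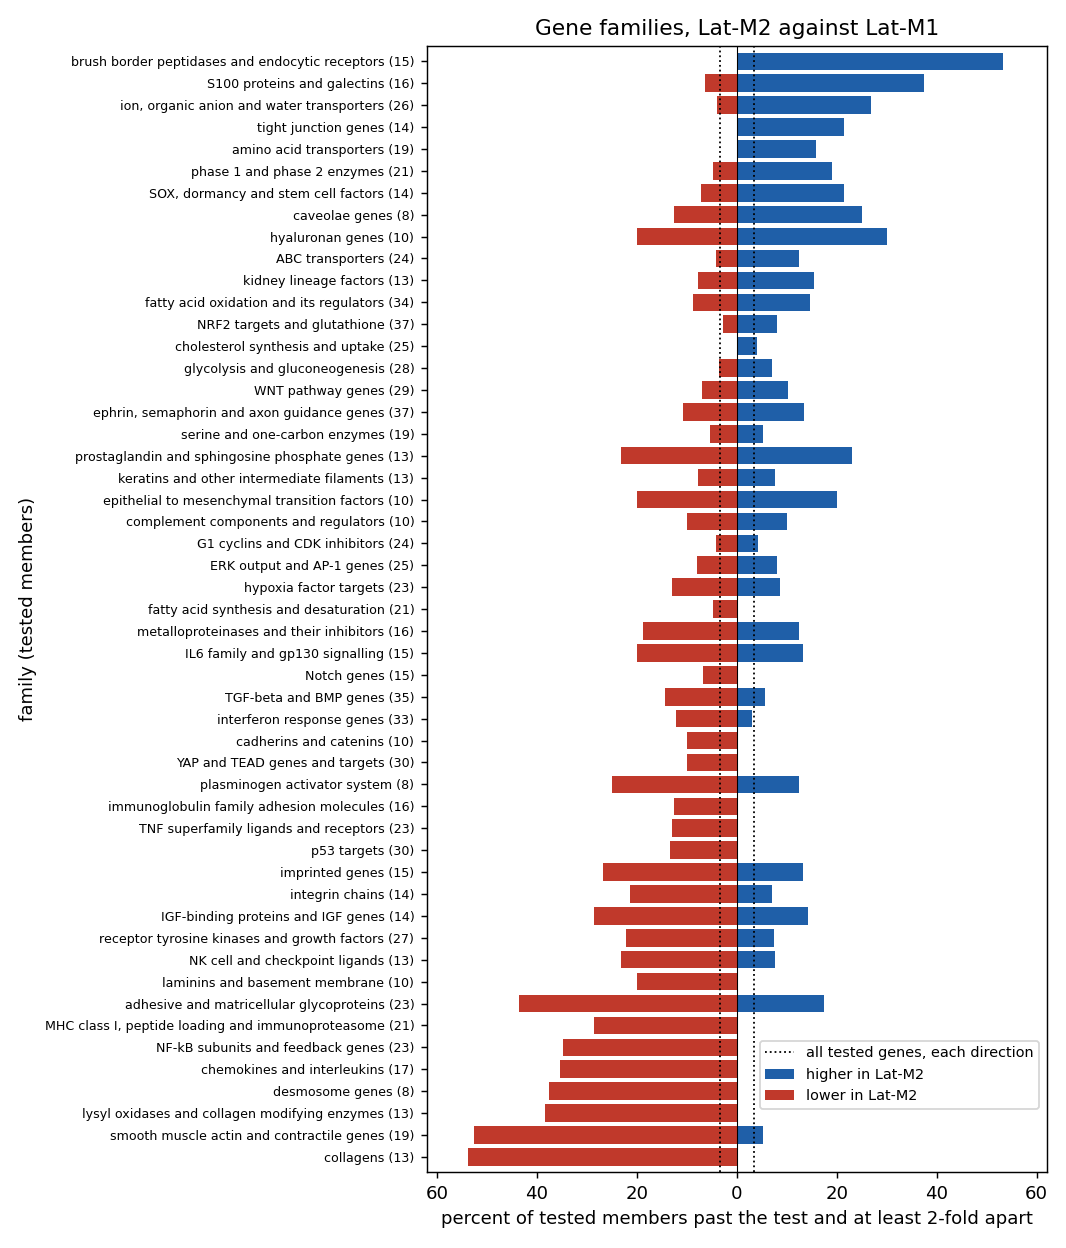
Percent of the tested members of each gene family that passed the test and were at least 2-fold higher (blue, to the right) or lower (red, to the left) in Lat-M2, for families with at least 8 tested members and at least 1 such gene; numbers in parentheses are tested members. Dotted lines mark 3.44% and 3.28%, the shares of all tested genes, and families run from mostly higher at the top to mostly lower at the bottom.

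Contractile genes were lower in Lat-M2 almost throughout. Of 26 genes on the list 19 were tested, 16 were lower and 1 was higher (2 after median-ratio scaling), and 10 were lower by at least 2-fold, with a median log2 fold change of -1.0 against -0.011 over all tested genes. TAGLN, transgelin, which binds actin filaments in smooth muscle, was at 402 and 440 TPM in Lat-M1, at 19.2 and 18.8 TPM in Lat-M2 and at 5.86 to 7.44 TPM in PA (-4.40 ± 0.104, limma adjusted p = 4.18e-07). CALD1, caldesmon, was at 165 and 171 against 15.8 and 13.4 TPM (-3.44 ± 0.0926, limma adjusted p = 7.27e-07). MYL9, the regulatory light chain of nonmuscle and smooth muscle myosin, was at 285 and 310 against 29.7 and 26.2 TPM (-3.37 ± 0.101, limma adjusted p = 1.29e-06). Unlike FN1 or ITGB3, these genes and ACTA2 were higher in both Lat-M2 libraries than in every PA library.

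The remaining members moved less. Log2 fold changes were -1.84 for the tropomyosin TPM2, -1.40 for the actin crosslinker ACTN1, -1.30 for SRF, the transcription factor that binds the promoters of many contractile genes, and -1.06 for its coactivator MKL1. The other SRF coactivator, MKL2, did not pass the test at 0.14. MYLK, the kinase that phosphorylates the myosin light chain, went the other way, at 4.18 and 4.49 TPM in Lat-M1 and at 22.2 and 19.6 TPM in Lat-M2 (2.03 ± 0.0829, limma adjusted p = 4.82e-06). These names other than ACTA2, TAGLN, CALD1 and MYL9 were chosen after their values were seen. The definitive smooth muscle genes MYH11, CNN1, DES and ACTG2 were listed but averaged under 1 TPM.

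SRF binds a motif called the CArG box, which was searched for on both strands of RefSeq promoter windows of 300 bases, from 250 before to 50 after each gene's start (GRCh38.p14). Only an exact box counted, 10 bases with nothing but A or T between CC and GG, and 1 window was read for each listed gene. A window was found for 17 of the 19 tested contractile genes, and 5 of the 17 (29.4%) held a CArG box. Over all 35116 windows, which were not limited to 1 a gene, 454 held it (1.29%). The AP-1 motif TGANTCA was in 1 of the 17 (5.88%; 7.71% of all windows) and the motif TATAAA in 2 (11.8%; 11.5% of all). The 5 genes are shown here because they hold the motif of a factor that was itself lower in Lat-M2. Each stretch of 40 bases is read 5′ to 3′ on the strand of its gene, with the CArG box in capitals.
CNN2, chr19:1026504-1026543, plus strand: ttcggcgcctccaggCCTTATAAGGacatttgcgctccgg
FLNA, chrX:154374704-154374743, minus strand: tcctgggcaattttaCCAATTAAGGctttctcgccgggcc
MYLK, chr3:123620618-123620657, minus strand: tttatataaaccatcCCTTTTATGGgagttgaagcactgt
SRF, first box, chr6:43171224-43171263, plus strand: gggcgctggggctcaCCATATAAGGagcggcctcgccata
SRF, second box, chr6:43171244-43171283, plus strand: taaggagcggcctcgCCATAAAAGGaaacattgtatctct
TPM4, chr19:16067350-16067389, plus strand: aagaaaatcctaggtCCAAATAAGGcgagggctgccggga
Of the genes with these boxes, CNN2, a calponin (log2 fold change -1.0), FLNA, the actin crosslinker filamin A (-0.86), SRF (-1.30) and TPM4, a tropomyosin (-0.98), were lower in Lat-M2 and MYLK was higher, so windows with a CArG box moved both ways. No exact CArG box was found in the windows of the genes named by size, of which 11 rises and 10 falls had a window. Less exact boxes, other windows of the same gene and sequence outside the windows were not searched. These genes may therefore still hold such boxes. A match is a description of the window and no evidence of binding.

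Collagens and the enzymes that modify them were also lower in Lat-M2. Of 13 tested collagens 9 were lower, 7 of them by at least 2-fold, and none was higher (median -1.09). At an unadjusted limma p under 0.05, and after median-ratio scaling, 1 was higher. COL4A1, a chain of basement membrane collagen, was at 910 and 917 TPM in Lat-M1 and at 255 and 212 TPM in Lat-M2 (-1.97 ± 0.0887, limma adjusted p = 7.77e-06). COL1A1, a chain of fibrillar type I collagen, was at 19.2 and 20.6 against 3.72 and 2.91 TPM (-2.28 ± 0.135, limma adjusted p = 2.61e-05), and COL12A1, a fibril-associated collagen, was at 8.48 and 9.4 against 1.06 and 0.897 TPM (-2.33). COL22A1 was at 9.04 and 9.66 TPM in Lat-M1 and listed at 0 in the 5 other libraries. The partner chain of type I collagen, COL1A2, did not exceed 0.00912 TPM in any Lat-M library.

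Of 13 tested lysyl oxidases and collagen-modifying enzymes 9 were lower, 5 by at least 2-fold, and none was higher, also at an unadjusted limma p under 0.05 (median -0.55), although 1 was with TPM over protein-coding genes alone. PLOD2, a lysyl hydroxylase that sets collagen crosslinks, was at 57.7 and 59.4 TPM in Lat-M1, at 5.24 and 4.67 TPM in Lat-M2 and averaged 1.23 TPM in PA (-3.32 ± 0.107, limma adjusted p = 1.69e-06). The prolyl hydroxylases LEPREL1 (-2.51) and P4HA2 (-1.13) and the lysyl oxidase LOXL2 (-1.06) were lower too.

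Adhesive and matricellular glycoproteins changed in both directions. Among 23 tested, 9 were higher and 11 lower, and 4 and 10 by at least 2-fold. THBS1, thrombospondin 1, which activates latent TGF-beta, was at 1216 and 1258 TPM in Lat-M1, at 205 and 189 TPM in Lat-M2 and averaged 183 TPM in PA (-2.64 ± 0.063, limma adjusted p = 4.22e-07). CTGF, a matricellular target of YAP and SRF, was at 18 and 18.4 against 0.884 and 1.17 TPM (-3.25). RELN, the secreted glycoprotein reelin, went the other way, with 1.34 and 1.35 TPM in Lat-M1, 44.5 and 41.3 TPM in Lat-M2 and a PA mean of 155 TPM (4.23 ± 0.0665, limma adjusted p = 7.72e-08). SPARC overlapped between the pairs, at 8.44 and 9.93 against 10.1 and 8.97 TPM (0.05 ± 0.133, limma adjusted p = 0.8).

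The enzymes that cut or protect the matrix were mixed. Of 16 tested metalloproteinases and inhibitors 4 were higher and 5 lower (9 and 5 with TPM over protein-coding genes alone). MMP1, interstitial collagenase, was at 15.5 and 17.4 TPM in Lat-M1 and at 95.4 and 86 TPM in Lat-M2 (2.39), both below the PA mean of 521 TPM. MMP14, a membrane-bound metalloproteinase, was at 16.2 and 16.3 against 55.3 and 50.6 TPM (1.64), whereas ADAM19 (-2.69) and the inhibitor TIMP3 (-1.62) were lower. In the plasminogen activator system SERPINE2, protease nexin 1, was at 10.8 and 11 against 120 and 109 TPM (3.28 ± 0.0631, limma adjusted p = 1.82e-07), while the urokinase gene PLAU (-0.90) was lower.

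Hyaluronan genes also differed in both directions. The synthase HAS3 (1.66), the hyaluronan-binding proteoglycan VCAN (1.43) and the hyaluronidase HYAL1 (1.21) were higher in Lat-M2, and the secreted pentraxin PTX3 (-2.12) and the receptor CD44 (-1.11) were lower. Among laminins and basement membrane genes LAMB3 (-1.26), a chain of laminin 332, was lower and NID1 (0.72) and LAMB1 (0.55) were higher.

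Of 14 tested integrin chains 9 were lower and 2 higher (median -0.39). The higher chains were 5 after median-ratio scaling and with TPM over protein-coding genes alone, 4 without the second Lat-M2 library, and 1 without any 1 of the 3 other Lat-M libraries. ITGAV, the alpha V partner of ITGB3, was at 781 and 803 TPM in Lat-M1 and at 363 and 336 TPM in Lat-M2 (-1.18 ± 0.0632, limma adjusted p = 1.67e-05). The collagen receptor chain ITGA1 was at 8.11 and 7.69 against 1.15 and 1.02 TPM (-2.09). ITGB4, the laminin-binding chain of hemidesmosomes, was higher, at 0.863 and 0.797 against 5.36 and 4.83 TPM (1.73 ± 0.182, limma adjusted p = 0.000403).

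Of 8 tested desmosome genes 4 were lower, 3 by at least 2-fold, and none was higher, also at an unadjusted limma p under 0.05. However, 1 was higher after median-ratio scaling or without the second Lat-M2 library, and 2 were with TPM over protein-coding genes alone. JUP, plakoglobin, was at 108 and 119 TPM in Lat-M1 and at 35.5 and 29.6 TPM in Lat-M2 (-1.78 ± 0.145, limma adjusted p = 0.000163), and the desmosomal cadherin DSC2 (-1.72) and desmoplakin, DSP (-1.23), were lower as well. Of 14 tested tight junction genes 9 were higher, 3 of them by at least 2-fold, and 3 lower (median 0.52). CLDN2, the pore-forming claudin of the proximal tubule, was at 31.2 and 34.4 against 199 and 187 TPM (2.52 ± 0.0669, limma adjusted p = 7.12e-07), and OCLN, occludin, was at 3.93 and 3.82 against 16.7 and 16.7 TPM (1.86). CLDN16 (1.39) was higher and the scaffold TJP1 (-0.98) lower.

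Among cadherins CDH2, N-cadherin (-0.68), and CDH6, kidney cadherin (-0.69), were lower, and CDH1, E-cadherin, was at most 0.0165 TPM in the Lat-M libraries. Keratins of simple epithelia were higher, with KRT8 at 88.8 and 95 against 206 and 181 TPM (1.06), KRT18 at 0.68 and KRT7 at 0.61. Vimentin, VIM, did not pass the test (-0.17 ± 0.0723, limma adjusted p = 0.115), but did after median-ratio scaling (adjusted p = 0.0343). Of the transcription factors of epithelial to mesenchymal transition, SNAI2 was at 24.6 and 28.8 against 6.3 and 6.73 TPM (-1.88) and FOXC1 (-1.28) was lower, while the epithelial factors KLF4 (1.35) and ELF3 (1.29) were higher. ZEB1 was lower by little (-0.33), a call that was lost without the second Lat-M1 library.

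Lists of tubule functions differed from each other in direction. Of 15 tested brush border genes 10 were higher, 8 by at least 2-fold, and 3 lower, none by 2-fold (median 1.12). CDHR2, a protocadherin that joins microvilli and is bound by harmonin, was at 0.0528 and 0.0549 TPM in Lat-M1 and at 7.2 and 7.78 TPM in Lat-M2 (3.01 ± 0.128, limma adjusted p = 5.69e-06). PDZK1, a scaffold of apical transporters, was at 20.2 and 17.9 against 88.6 and 84.4 TPM (2.13). ANPEP, aminopeptidase N, was at 79.2 and 85.1 against 224 and 212 TPM, with a PA mean of 53.3 TPM (1.40), and MME, neprilysin, was low throughout (1.42 and 1.47 TPM at its highest, 1.20).

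Of 26 tested ion, organic anion and water transporters 14 were higher, 7 by at least 2-fold, and 4 lower (median 0.51), the last 2 without the second Lat-M1 library. After AQP1 the largest were KCNJ15, an inward rectifier potassium channel, at 1.18 and 1.05 against 23.2 and 22.3 TPM (3.49 ± 0.0745, limma adjusted p = 2.8e-07), and SLC22A3, an organic cation transporter, at 2.36 and 2.49 against 31 and 26.3 TPM (3.11). SLCO2A1, which takes prostaglandins into cells, was lower, at 16.1 and 18 against 1.45 and 1.37 TPM (-2.90). The PA mean of SLCO2A1 was 0.284 TPM, so this gene, unlike AQP1, was highest in Lat-M1 and lowest in PA.

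The carriers of cystine and dibasic amino acids were higher together with their glutamate counterpart. SLC7A9, the light chain of the cystine carrier, was at 0 and 0.0377 TPM in Lat-M1 and at 15.5 and 14.4 TPM in Lat-M2 (3.97 ± 0.13, limma adjusted p = 1.91e-06). Its heavy chain SLC3A1 was at 29.5 and 29.9 against 147 and 138 TPM (2.23 ± 0.0567, limma adjusted p = 5.91e-07). SLC1A1, an apical glutamate transporter, was at 6.5 and 7.32 against 35 and 33.1 TPM (2.15). Over the amino acid transporter list of 19 tested genes, which holds these carriers, 5 were higher and 6 lower, against 7 and 6 with TPM over protein-coding genes alone.

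Of 21 tested phase 1 and phase 2 enzymes, which oxidise and conjugate drugs and steroids, 11 were higher and 7 lower, and without the first Lat-M1 library 7 were higher. SULT1E1, the estrogen sulfotransferase, was listed at 0 in both Lat-M1 libraries and was at 15 and 14.3 TPM in Lat-M2. UGT2A3, a glucuronosyltransferase, was at 8.18 and 8.06 against 39.4 and 39.6 TPM (2.15), and NNMT, nicotinamide methyltransferase, was at 151 and 155 against 50.1 and 46.3 TPM (-1.65). Of 24 tested ABC transporters 9 were lower, 1 of them at least 2-fold, and 7 higher, 3 at least 2-fold (median -0.16). The lower genes were 5 without the first Lat-M1 library and 4 without the second. ABCB1, the drug efflux pump P-glycoprotein, was at 5.33 and 5.47 against 65.6 and 56.9 TPM (3.28 ± 0.08, limma adjusted p = 4.77e-07), and ABCC2, an apical conjugate pump, was higher too (1.16), while the peptide transporter chains TAP1 (-1.30) and TAP2 (-0.92) were lower.

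Of 13 tested kidney lineage factors 6 were higher, 2 of them by at least 2-fold, and 2 lower, 1 by at least 2-fold. The higher genes were 2 without the first Lat-M1 library, and 3 without the second or without the first Lat-M2 library. The largest change on this list was the fall of BHLHE41 (-3.72), and POU3F3 was lower too (-0.79). HNF4G, a transcription factor of tubular identity, was at 14.3 and 14.6 TPM in Lat-M1, at 110 and 105 TPM in Lat-M2 and averaged 109 TPM in PA (2.81 ± 0.0606, limma adjusted p = 2.87e-07). PAX8, at 80.6 and 87.9 against 79 and 76.7 TPM, did not pass the test (limma adjusted p = 0.34). Of the SOX, dormancy and stem cell list, 8 of 14 tested were higher (5 without the first Lat-M1 library) and 2 lower. The retinaldehyde dehydrogenase ALDH1A1 was at 27.7 and 26.4 against 103 and 96.3 TPM (1.84), and the orphan receptor NR2F1, studied as a dormancy factor, was at 0.628 and 0.839 against 4.78 and 4.12 TPM (1.65). BHLHE41, listed above with the kidney lineage factors, is also studied as a dormancy factor and was lower (-3.72), so these 2 went opposite ways. SOX9 was lower (-0.55).

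Fatty acid oxidation genes were more often higher than lower, with 17 against 6 of 34 tested and 5 against 3 by at least 2-fold (median 0.36). PPARGC1A, the coactivator that drives mitochondrial and oxidative genes, was at 1.33 and 1.24 TPM in Lat-M1, at 22.6 and 21.7 TPM in Lat-M2 and averaged 20.1 TPM in PA (3.34 ± 0.0797, limma adjusted p = 4.22e-07). The mitochondrial thiolase ACAA2 (1.86) was higher, and the nuclear receptor PPARD (-2.67) and the peroxisomal oxidase ACOX3 (-1.75) were lower. PLIN2, which coats lipid droplets, was at 1.57 and 1.21 against 17 and 16.1 TPM (2.88).

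Of 28 tested genes of glycolysis and gluconeogenesis 15 passed the test, 8 of them higher (2 at least 2-fold) and 7 lower (1 at least 2-fold). With TPM over protein-coding genes alone 16 were higher and 6 lower, and without the second Lat-M1 library 4 were lower. SLC16A3, the lactate exporter MCT4, was at 25.8 and 26.5 TPM in Lat-M1 and at 1.28 and 1.28 TPM in Lat-M2 (-3.57 ± 0.131, limma adjusted p = 2.95e-06). The enolases ENO3 (1.12) and ENO2 (1.03) and the glucose transporter SLC2A1 (0.66) were higher. In the serine pathway PHGDH exceeded 1 TPM in Lat-M1 alone, whereas PSPH, the last enzyme of the pathway (0.67), and GLDC, the glycine decarboxylase (1.16), were higher in Lat-M2. The heme oxygenase HMOX1 (1.19) was higher, and the NRF2 target NQO1 (-0.42) and the aldose reductase AKR1B1 (-1.21) were lower.

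The hypoxia pathway is active in clear cell carcinoma when VHL is lost. Of 15 tested genes on the list of VHL and hypoxia factors 5 were lower and 1 higher (40% called), none by 2-fold on the log2 scale used here. With TPM over protein-coding genes alone 5 were lower and 4 higher. Without the second Lat-M1 library 3 were lower, and the higher gene was lost without either Lat-M1 library, the first Lat-M2 library or either of 2 PA libraries. VHL did not exceed 0.164 TPM in any Lat-M library. EPAS1, which encodes HIF-2 alpha, was at 3.01 and 2.98 against 1.09 and 1 TPM (-0.96 ± 0.174, limma adjusted p = 0.00483), and HIF1A did not pass the test (-0.36, limma adjusted p = 0.173). Of 23 tested targets 4 were higher and 10 lower, with 6 higher under TPM over protein-coding genes alone and 2 without either Lat-M1 library or the first Lat-M2 library. STC1, stanniocalcin 1, was at 5.85 and 6.49 against 0.308 and 0.392 TPM (-2.41) and CCND1, cyclin D1, was lower (-0.96), but VEGFA, at 12.1 and 11.5 against 12 and 11.8 TPM, did not pass the test (0.01, limma adjusted p = 0.923). CA9 did not exceed 0.0609 TPM in the Lat-M libraries.

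NF-kB, the transcription factor of inflammatory signalling, induces its own inhibitors and many cytokines. Of 23 tested NF-kB subunits and feedback genes 18 were lower in Lat-M2, 8 by at least 2-fold, and 1 was higher (median -0.71), the last call lost without the first library of either pair. TNFAIP3, the ubiquitin-editing inhibitor A20, was at 26.9 and 29.4 TPM in Lat-M1, at 8.23 and 8.04 TPM in Lat-M2 and averaged 8.15 TPM in PA (-1.67 ± 0.0843, limma adjusted p = 1.29e-05). TRAF1 (-1.86), IER3 (-1.64) and the leukocyte adhesion molecule ICAM1 (-1.55) were lower, and NFKBIA, the inhibitor that NF-kB induces first, was lower by less (-0.49).

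Of 17 tested chemokines and interleukins 9 were lower, 6 by at least 2-fold, and 1 was higher, against 3 after median-ratio scaling, 2 without the second Lat-M2 library and 0 without the first Lat-M1 library. IL8, a neutrophil chemokine, was at 168 and 183 against 45.3 and 42.9 TPM, with a PA mean of 22.2 TPM (-1.97 ± 0.0718, limma adjusted p = 2.87e-06). CCL2, which recruits monocytes, was at 35.2 and 42.5 against 9.96 and 10.3 TPM (-1.83), and CXCL1 was at 4.87 and 5.29 TPM in Lat-M1 and listed at 0 in both Lat-M2 libraries. IL6 was at 12.9 and 14 against 0.363 and 0.263 TPM (-3.46 ± 0.165, limma adjusted p = 1e-05). Its relative LIF (-0.91) and the feedback inhibitor SOCS3 (-1.39) were lower, and the receptor chain IL31RA was higher (1.89). TNF itself was at 38.5 and 40.1 against 7.58 and 8.19 TPM (-2.18).

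Class I molecules present peptides to cytotoxic T cells. Of 21 tested genes of MHC class I, peptide loading and the immunoproteasome 16 were lower, 6 by at least 2-fold, and none was higher, also at an unadjusted limma p under 0.05 (median -0.64), although 1 was with TPM over protein-coding genes alone. B2M, the light chain of all class I molecules, was at 1073 and 1163 TPM in Lat-M1, at 547 and 534 TPM in Lat-M2 and averaged 451 TPM in PA (-1.05 ± 0.0666, limma adjusted p = 3.69e-05). HLA-B was at 414 and 445 against 117 and 104 TPM (-1.95), the peptide transporter TAP1 at 59.1 and 62.1 against 27.2 and 21.3 TPM (-1.30) and the class I transactivator NLRC5 at 7.04 and 7.82 against 2.58 and 2.71 TPM (-1.21). HLA genes resemble each other in sequence, so the split of reads among them is uncertain. Of 15 MHC class II genes 3 were tested. CD74, the invariant chain, was at 10.7 and 11.3 against 5.57 and 5.84 TPM (-0.84), and the protease CTSS was lower (-0.49). The lower count fell from 2 to 1 when any 1 of the Lat-M libraries was left out. The thiol reductase IFI30 was higher (1.95). CTSS and IFI30 were named after their values were seen.

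Of 33 tested interferon response genes 15 were lower and 4 higher. The higher genes were 7 with TPM over protein-coding genes alone, and the lower were 9 without the first Lat-M1 library and 8 without the second library of either pair. The guanylate-binding protein GBP1 was at 92.7 and 97.5 against 31.9 and 26.9 TPM (-1.66 ± 0.0911, limma adjusted p = 1.81e-05) and IFITM3, a membrane protein that blocks viral entry, at 40.2 and 42.1 against 13.4 and 12.9 TPM (-1.57). The checkpoint ligand CD274, PD-L1, was lower (-1.25), as were C1S (-2.09) and C3 (-0.82) of complement. The complement protease CFI was higher (2.03), as was NCR3LG1, a ligand of an NK cell receptor (1.19).

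Growth factor lists held genes that were higher and genes that were lower. INHBA, the activin A subunit, was at 96.1 and 102 TPM in Lat-M1, at 8.56 and 7.29 TPM in Lat-M2 and averaged 31.5 TPM in PA (-3.49 ± 0.0864, limma adjusted p = 5e-07). TGFBI, a matrix protein induced by TGF-beta, was at 378 and 396 against 73.9 and 65.7 TPM (-2.46), and the ligand TGFB1 (-0.78) was lower while the pseudoreceptor BAMBI was higher (1.44). Of 35 tested TGF-beta and BMP genes 12 were lower and 8 higher, against 12 and 14 with TPM over protein-coding genes alone. The 5 lower by at least 2-fold became 3 without the second Lat-M1 library.

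Of 27 tested receptor tyrosine kinases and growth factors 11 were lower and 5 higher, 6 and 2 by at least 2-fold, but with TPM over protein-coding genes alone 11 were lower and 11 higher, and without the first Lat-M1 library 3 were higher. HBEGF, a ligand of EGFR, was at 52.1 and 51.6 against 9.07 and 8.12 TPM (-2.46 ± 0.0845, limma adjusted p = 2.21e-06), KITLG, the ligand of KIT, at 52.8 and 56.6 against 13.1 and 10.8 TPM (-2.11) and VEGFC at 6.41 and 7.68 against 0.366 and 0.336 TPM (-2.57). Of the receptors, ERBB3 was at 0.185 and 0.102 against 8.44 and 7.85 TPM (3.00 ± 0.121, limma adjusted p = 4.51e-06) and AXL was higher (0.62). EGFR and MET did not pass the test (limma adjusted p = 0.33 and 0.0895), although MET did after median-ratio scaling (adjusted p = 0.00895).

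IGFBP3, a carrier of insulin-like growth factors, was at 30 and 31.6 against 2.42 and 2.53 TPM (-3.19 ± 0.0973, limma adjusted p = 1.35e-06), and IGFBP7 (-1.16) was lower while IGFBP6 (2.11) was higher. Guidance cues went both ways, with NTN4, a laminin-related netrin, at 13.9 and 13.4 against 86.3 and 79.2 TPM (2.51) and NTN1 at 16.9 and 17.7 against 2.36 and 2.2 TPM (-2.48). The ephrin receptor EPHA7 was at 265 and 256 against 917 and 865 TPM (1.77).

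The YAP and TEAD list held 30 tested genes, 13 lower and 6 higher (12 and 10 with TPM over protein-coding genes alone). CTGF (-3.25) and ANKRD1 (-1.16) were lower, whereas CYR61, another target, was slightly higher (0.24 ± 0.0635, limma adjusted p = 0.0248), a call lost in several settings. In the Notch list 8 of 15 were lower (4 without the second library of either pair), among them MAML2 (-1.61) and NOTCH2 (-0.88). The WNT list had 8 higher and 9 lower of 29 (12 and 10 with TPM over protein-coding genes alone, and 5 and 5 without either Lat-M1 library), with WNT7B (1.37) higher and the secreted inhibitor DKK3 (-1.24) lower. The ERK output gene DUSP6 was higher (0.54), but not without the first Lat-M1 library.

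Of 30 tested p53 targets 18 were lower, 4 by at least 2-fold, and 1 was higher (median -0.51). The higher targets were 4 after median-ratio scaling and 5 with TPM over protein-coding genes alone, and leaving out 1 library gave 0 to 2. CDKN1A, the cyclin-dependent kinase inhibitor p21, was at 321 and 343 TPM in Lat-M1, at 116 and 106 TPM in Lat-M2 and averaged 187 TPM in PA (-1.57 ± 0.0682, limma adjusted p = 6.38e-06). Lat-M1 was thus above PA and Lat-M2 below it. BTG2 (-1.18), DDB2 (-1.13), SESN1 (-1.04) and MDM2 (-0.58) were lower too.

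**Figure D4:**
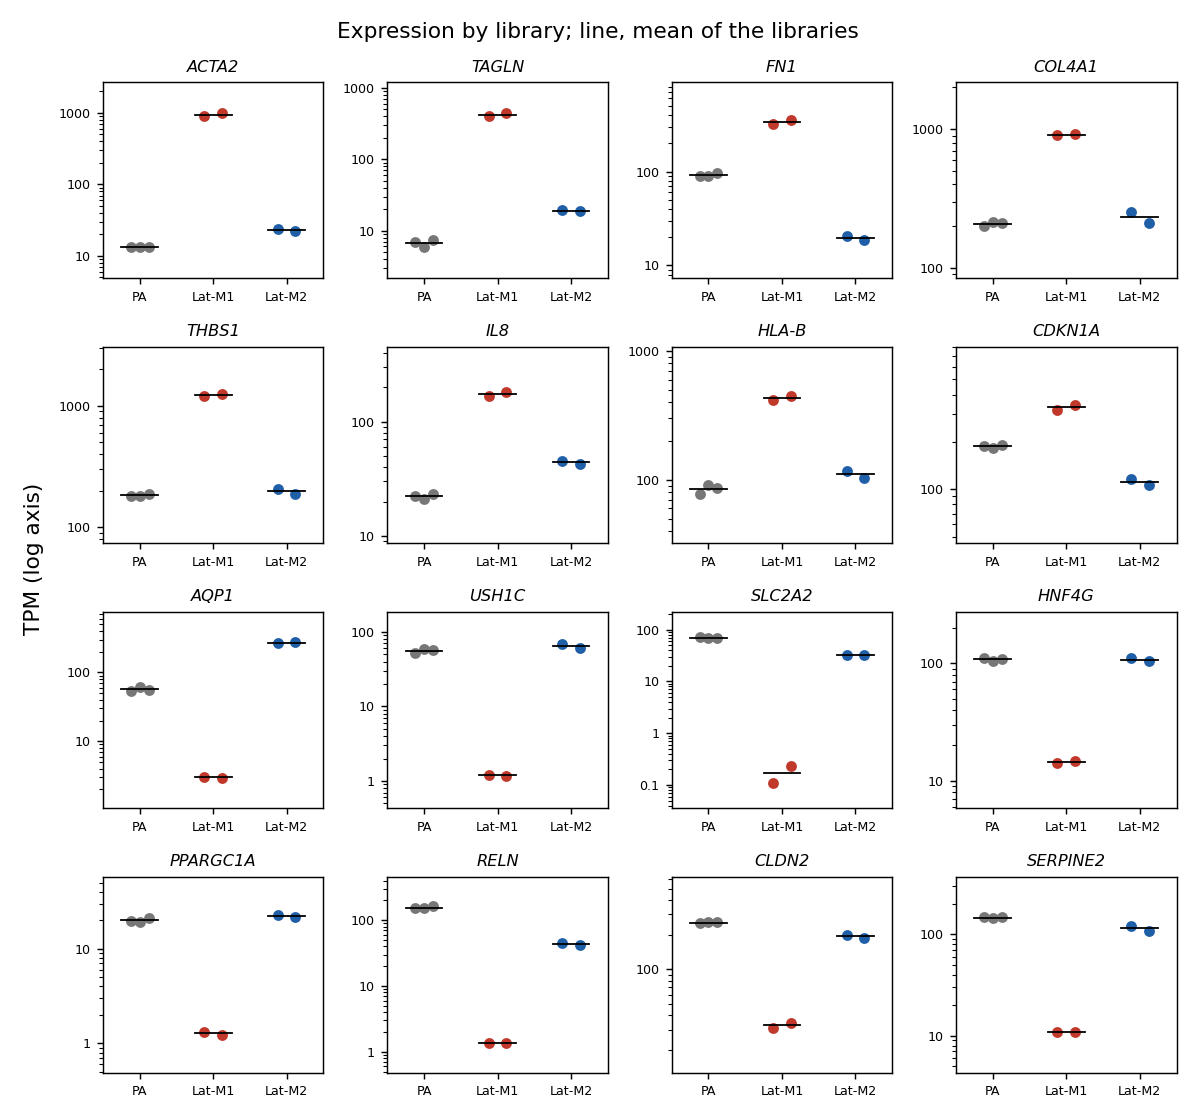
TPM of 16 genes (log axes, 1 panel each) in the 3 PA, 2 Lat-M1 and 2 Lat-M2 libraries; points are libraries and lines are group means. The upper 8 genes, from ACTA2 to CDKN1A, were higher in both Lat-M1 libraries than in the 5 others, and the lower 8, from AQP1 to SERPINE2, were lower in both Lat-M1 libraries than in the 5 others.

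S100 proteins and galectins, are small calcium-binding and sugar-binding proteins. Of 16 tested 9 were higher, 6 by at least 2-fold, and 4 lower (2 without the second Lat-M1 library). S100A2 was at 122 and 124 TPM in Lat-M1 and at 583 and 658 TPM in Lat-M2, with a PA mean of 870 TPM (2.33 ± 0.0702, limma adjusted p = 1.31e-06). Galectins went opposite ways: LGALS2 was at 0.456 and 0.83 against 43.4 and 48.4 TPM, LGALS4 was higher (2.38), and LGALS3 exceeded 1 TPM in Lat-M1 alone. In the caveolae list PTRF, the cavin that coats caveolae, was at 63.9 and 65.2 against 15.5 and 12.9 TPM (-2.11), another cavin, SDPR, was at 8.14 and 8.01 against 31.3 and 32 TPM (1.85), and CAV1 did not pass the test (-0.17, limma adjusted p = 0.0678) but did after median-ratio scaling (adjusted p = 0.0192).

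Among 15 tested imprinted genes 8 were lower and 2 higher (3 after median-ratio scaling). Besides NDN, the overlapping genes SNURF and SNRPN, whose reads may be shared, were lower (-1.22 and -1.19). PEG10, a gene derived from a retrotransposon, was at 72.9 and 78 against 182 and 157 TPM (1.15), both below the PA mean of 511 TPM.

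Growth genes differed little. No member of the S phase (37 tested), G2 and mitosis (40), MYC and ribosome biogenesis (28), cytosolic ribosomal protein (79) or mitochondrial ribosomal protein (76) lists reached a 2-fold difference, and their medians lay between -0.17 and -0.04. Without the first Lat-M2 library 1 gene of the MYC list was lower by 2-fold. MKI67, a proliferation marker, overlapped between the pairs at 106 and 117 against 110 and 98.8 TPM (-0.10 ± 0.08, limma adjusted p = 0.397), and MYC did not pass the test (-0.18, limma adjusted p = 0.0845), though it did after median-ratio scaling (adjusted p = 0.0238). Small shifts were nonetheless called. Of 79 ribosomal proteins 24 were lower and 2 higher (32.9% called), a balance that turned with TPM over protein-coding genes alone, to 20 lower and 29 higher. Without the first Lat-M1 library 15 were lower, and without the second 8. With TPM over protein-coding genes alone the medians of both ribosomal lists and of the G2 and mitosis list were above 0. Of 43 tested replication-dependent histones 13 were higher and 1 lower (32.6% called). The higher histones were 21 with the structural RNAs left out and 8 without the first Lat-M1 library. HIST1H1B, a linker histone, was at 693 and 762 against 1255 and 1135 TPM (0.72). Histone genes are near copies of each other, so their separate values are uncertain.

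The 75 nuclear genes of the respiratory chain had 20 higher and 8 lower (37.3% called), none by 2-fold (median 0.06). With TPM over protein-coding genes alone 43 were higher and 8 lower. Without the first Lat-M1 library 9 were higher and 5 lower, and without the second 13 and 1. Of the 13 genes encoded in mitochondria none passed limma's test without or with median-ratio scaling, nor an unadjusted p under 0.05. They lay between -0.22 and 0.05. Of 35 tested ATF4 and endoplasmic reticulum stress genes 12 were lower and 3 higher, none by 2-fold, with ATF4 itself at -0.44. Together 42.9% of this list passed the test, against 36% of all tested genes. With TPM over protein-coding genes alone 11 of the list were lower and 13 higher, and without the second Lat-M1 library 7 were lower. The BCL2 family had 7 lower and 1 higher of 16, none by 2-fold unless the first library of either pair was left out, against 7 and 4 with TPM over protein-coding genes alone.

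Markers of other cells were measured because contractile, collagen and leukocyte-related genes differed between the pairs. Of 15 fibroblast and pericyte markers 2 were tested, and they went opposite ways. COL1A1 was lower in Lat-M2 (-2.28) and the other was higher (0.80). In Lat-M1 COL1A1 made up most of the summed level of that list, which was 22.3 and 24.2 TPM in Lat-M1, 8.98 and 6.94 TPM in Lat-M2 and 5.23 to 5.61 TPM in PA. COL3A1 reached 0.0276 TPM, DCN 0.0364 TPM and LUM 0.0326 TPM at most in the Lat-M libraries, and THY1 was listed at 0 in all 4. Of 15 leukocyte markers 2 were tested, with a summed level of 20 and 21.3 TPM in Lat-M1 and of 45.5 and 43.1 TPM in Lat-M2. It came mostly from CD68, a lysosomal protein that many cell types express (1.40), while PTPRC, CD53 and LYZ were listed at 0 in all 4. The other tested leukocyte marker was lower in Lat-M2 (-0.77). Of the endothelial markers only EGFL7 was tested and CDH5 was listed at 0 throughout, and no erythroid marker reached the minimum.

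Markers of the line were measured in the same way. Of 16 markers of the renal carcinoma line 13 were tested, with a summed level of 3226 and 3395 TPM in Lat-M1 and of 3474 and 3116 TPM in Lat-M2. Their summed levels overlapped, but single markers differed. Higher in Lat-M2 were 6 of them, 3 by at least 2-fold, and 4 were lower, 2 by at least 2-fold. The higher ones include ANPEP (1.40), KRT8 (1.06) and, by less than 2-fold, EPCAM (0.79). The lower ones include NNMT (-1.65) and, by less than 2-fold, CD70 (-0.57).

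Differences were uneven over the autosomes. On chromosome 15, 270 of 552 tested genes were lower in Lat-M2 and 21 higher, with a median of -0.39 (-0.36 after scaling). The median of its genes was 0.61 for Lat-M1 over PA and 0.20 for Lat-M2 over PA, where all tested genes had 0.16 and 0.14. Chromosome 22 had a median of -0.30, with 156 of 382 lower and 25 higher, and chromosome 6 had -0.23. Chromosome 13 had the highest median, 0.23, with 104 of 291 genes higher and 32 lower. No DNA copy number was measured in the files used here. Of the genes named above, chromosome 15 carries B2M, THBS1, NDN, SNRPN, SNURF and TJP1, all lower in Lat-M2, and ANPEP, which was higher. On chromosome 6, 339 of 852 tested genes were lower and 66 higher. Its named genes that were lower include HLA-B, TAP1, TAP2, TNF, CTGF, PPARD, COL12A1, TNFAIP3, IER3, FOXC1 and DSP. Those that were higher include EPHA7 and SLC22A3.

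**Figure D5:**
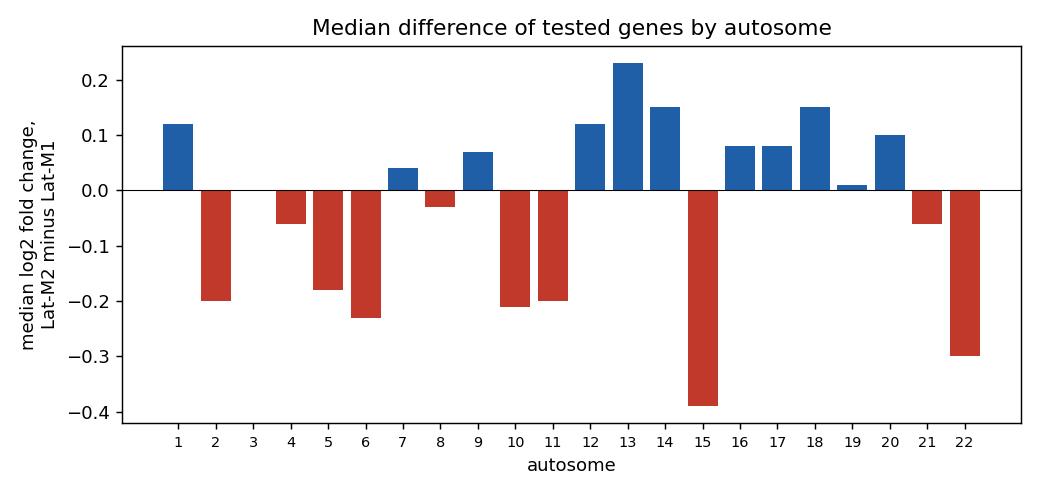
Median log2 fold change, Lat-M2 minus Lat-M1, of the tested genes of each autosome (x axis), with chromosomes assigned by gene identifier. Bars run from -0.39 on chromosome 15 to 0.23 on chromosome 13, and the median of all tested genes was -0.011.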

How the data were processed

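The authors deposited TPM values for 33117 genes in each library. The unit was inferred: every library adds up to 1000000, and the lowest values of genes under 0.1 TPM fall as transcripts get longer (Spearman's rho -0.94 over 7767 genes). TopHat2 2.2.4 and the hg19 genome are named in the submitters' processing notes. The quantifier and annotation are not given in the sources used here. TPM keeps no depth, so no counting intervals are given.

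Values were taken as log2(TPM + 1). Genes averaging 1 TPM or more were fitted with limma 3.58.1 (R 4.3.3; trend and robust options) in 3 groups sharing 1 estimate of spread, with Benjamini-Hochberg adjustment over all 16724. The error given with a log2 fold change is its standard error. An exact permutation test of 2 against 2 libraries cannot go below 0.333, so none was used. Fold changes of genes near 0 depend on the 1 that was added. The script was tested on simulated data.

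The comparison, the gene lists and their members were chosen with earlier results of these data known. Named by rule were the 15 largest rises and 15 largest falls past 0.05 without and with median-ratio scaling, with pairs that did not overlap and a higher pair averaging at least 5 TPM, then up to 4 called members per list with the largest changes and an average of at least 5 TPM, and set genes whatever their result. Of these, 1 entry named by size and some list members are not reported here. Of 2131 listed genes 151 were not found by symbol and 1431 were tested. For 161 symbols under more than 1 identifier the most highly expressed entry stands for the gene. Gene types and chromosomes came from GENCODE v29, which matched 94.2% of tested genes. Its build differs from the submitters', so no gene positions are given, and promoter windows are from RefSeq on GRCh38.p14. Alternatives changed the scaling, pseudocount, filter, model and libraries.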

Additional observations from a re-analysis of the deposited data

Results flagged for a closer look

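The genes named by size and reported here are 13 rises and 14 falls, counted by symbol. In 17 of them, both Lat-M1 libraries lay on one side of all 3 PA libraries and both Lat-M2 libraries on the other. Genes named by size had been chosen for pairs that do not overlap, as in 68.3% of all tested genes. The share of all tested genes with PA between the pairs was not counted, so whether the 17 genes stand out is unknown. Among the rises in Lat-M2 these were AQP1 (log2 fold change 6.06), SYT13 (5.24), USH1C (4.90), LGALS2 (4.84), CHCHD10 (4.63), SLCO1B3 (4.53), LST3 (4.51), SUCNR1 (4.43), CLRN3 (4.40) and GPR35 (4.25). Among the falls they were ITGB3 (-5.59), PHGDH (-4.98), CLEC4E (-4.98), RBMS3 (-4.49), RP11-453F18__B.1 (-4.47), FN1 (-4.02) and RP11-283G6.4 (-3.71). Between the pairs the largest limma adjusted p was 1.73e-05, for RP11-283G6.4, but these genes had been chosen by that test. Their position on either side of PA was not tested.

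The sizes on either side of PA were unequal, and some gaps were narrow. For USH1C the highest PA library was at 58.7 TPM and the lower Lat-M2 library at 61 TPM. For CHCHD10 these were 25.8 and 26.6 TPM. For RP11-283G6.4 the lowest PA library was at 1.62 TPM and the higher Lat-M2 library at 1.6 TPM. FN1 and AQP1 were far from PA on both sides, with FN1 at a mean of 334 TPM in Lat-M1, 91.6 in PA and 19.6 in Lat-M2, and AQP1 at 3.02, 56.5 and 268 TPM. For PHGDH, RBMS3 and RP11-453F18__B.1 the PA and Lat-M2 values were all under 0.2 TPM, so their order there rests on values near 0, and the fold change of RBMS3, listed at 0 in Lat-M2, depends on the 1 that was added.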

How the results depend on the processing

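TPM over protein-coding genes alone gave 4482 higher genes and leaving out the 4 structural RNAs gave 4401, against 2668. A minimum mean of 5 TPM left 317 genes at least 2-fold higher and 328 lower, of 11444 tested, and limma's treat against a 1.5-fold change gave 457 higher and 506 lower. Leaving out 1 library in turn gave 1536 to 2689 higher genes, 1917 to 3550 lower genes, 523 to 607 at least 2-fold higher, 483 to 646 at least 2-fold lower and 41 to 52 families with a median below 0. The other settings kept each of these counts within 1.5 times.

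Deviations from the pair means correlated at 0.0312 across genes between Lat-M libraries with the same last number in their titles. With 2 libraries a pair the deviations mirror each other, so this is a single value. It cannot show whether libraries with the same last number were handled together. With the last number fitted as a block there were 2105 higher and 2690 lower genes, against 2668 and 3354 without it, and 587 and 551 by at least 2-fold.

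Of 284 genes named by rule that passed the test, 182 kept the call in every one of the 19 settings that tested them and none reversed. The treat test took away 102 of these calls, and each other setting between 0 and 13. All 29 entries named by size kept theirs. Single calls given above that were lost elsewhere include ZEB1, CYR61 and DUSP6. Of 288 family counts, leaving out 1 Lat-M library moved 24 to 46 by over 1.5 times, leaving out 1 PA library 3 to 6, the treat test 120 and TPM over protein-coding genes alone 41. With 2 libraries a pair, small differences rest on a spread shared with PA.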

Other observations

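Noncoding genes held fewer calls than protein-coding genes. Of 11483 tested protein-coding genes 43.7% passed the test, against 26.3% of 616 lincRNAs, 22.1% of 716 antisense genes and 9.15% of 317 genes annotated as miRNA, whose values here come from long RNA libraries and do not measure mature miRNAs. The shares at least 2-fold apart were closer, at 7.02%, 8.12%, 5.73% and 6.31%. Among lincRNAs chosen after their values were seen, UCA1 was higher in Lat-M2 (1.66) and the host transcript annotated as MIR146A was lower (-2.07).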
